A study of Mus musculus with 42 samples.

Results

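Microglia that were not dividing were compared between APP/PS1 mice aged 12 months and APP/PS1 mice aged 4 months. The comparison rests on 4 libraries at 12 months and 4 at 4 months, out of 42 libraries in the series. Its members are the genes whose mean value was at least 7 in either group, 12004 of the 19151 genes in the table. A gene could enter through either age, and the rule used no difference between the ages, but a gene that is high at one age only is a member through that age. The values are on a log2 scale, so a difference of 1 is a doubling. Just inside the limit lay Vmn1r173 with a highest group mean of 7.00011, and just outside lay Pigz with 6.99993.

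All mice were C57BL/6 males. APP/PS1 mice carry mutant transgenes of familial Alzheimer's disease under the prion protein promoter, which drives them mainly in neurons, and they deposit amyloid-beta in the brain with age. WT littermates do not carry them. Brains were dissociated, the cells were fixed with paraformaldehyde because Ki67 is a nuclear protein, and CD11b+/CD45+ cells were sorted by Ki67, a protein of dividing cells, with up to 400 Ki67+ or Ki67- cells per library. The same sort gave 4 Ki67+ libraries at each of the 2 ages from APP/PS1 mice, 5 Ki67- libraries at 4 months and 3 at 12 months from WT mice, and 2 Ki67- libraries of 6-month-old APP/PS1 mice, all used here for comparison. Values of 3 Ki67- libraries at 6 months and 4 Ki67+ libraries at 12 months from WT mice are given as well. The labels do not say that each library came from a different mouse, so the p-values measure the spread between libraries. That spread is 1 estimate per gene pooled over all 12 groups of the series, and the SEs and p-values below rest on it. They do not measure the spread of the 8 compared libraries alone, and may be too small for a gene that is more scattered in these 8. In these bulk libraries, fewer cells of a type and less RNA per cell cannot be told apart.

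Microglia are the resident macrophages of the brain. Around amyloid plaques they leave a surveying state, marked by genes such as Tmem119 and P2ry12, for a disease-associated state in which genes for lipid uptake, lysosomal breakdown and phagocytosis rise. The second step of that change depends on the lipid receptor TREM2 and its signalling partner TYROBP, for which apolipoprotein E is one ligand. Many lysosomal genes carry the sequence CACGTG in their promoters, the core of the element that the factor TFEB binds.

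The libraries carried microglial markers. The 10 microglial markers had a mean between 13.79 and 14.11 in the 4-month libraries and between 13.41 and 13.86 at 12 months, and Tmem119 alone among them changed. Mki67, the gene for Ki67, had values of 7.09, 7.36, 7.68 and 8.19 at 4 months and 7.49, 8.13, 6.96 and 8.49 at 12 months, with a difference of 0.18 (SE 0.39, adjusted p = 0.874). Their means of 7.58 and 7.77 for Mki67 lay below those of the APP/PS1 Ki67+ libraries of the same ages, 8.84 ± 0.43 and 8.59 ± 0.43 (SD, n = 4). The 3 libraries labelled WT Ki67- at 12 months, however, had Mki67 values of 8.81, 8.84 and 8.80, at the level of the APP/PS1 Ki67+ libraries. These values lay above every APP/PS1 Ki67- library and the WT Ki67- mean of 8.05 at 4 months. By contrast, their mean over the cell cycle genes was 7.42 to 7.43, below the 7.93 to 8.13 of WT Ki67+ libraries at 12 months. Their mean over the astrocyte markers was 8.65 to 8.77, also below the 10.99 to 11.26 of those Ki67+ libraries. Whether the label of the 3 WT Ki67- libraries at 12 months is right was not tested. The age difference of Mki67 in WT mice was 0.77 (adjusted p = 0.228). The depth of a library cannot be read from these values. The authors had removed 10 surrogate variables, estimated patterns of unwanted variation, from the table. Of the 3 independent differences that 4 replicates can show, the equivalent of 2.7 remained at 12 months and 2.26 at 4 months. Among the 3 WT libraries at 12 months the equivalent of 0.0187 of 2 remained, and the median SD of a gene between those 3 libraries was 0.0331, against 0.408 and 0.311 in the APP/PS1 libraries at 12 and 4 months. Every comparison with WT mice below therefore carries an error that these libraries do not show, and without all 3 of them it cannot be made.

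To show what the promoters of the changed lysosomal genes hold, windows of 300 bases, 250 before to 50 after the annotated start, were searched for CACGTG, which reads the same on both strands. RefSeq's table on GRCm38.p6 held a window for 42 of the 52 lysosomal members, and 15 of these (35.7%) held the motif, beside 8.09% of all 27025 genes in the table. Of all members 78.5% had a window, and 11.7% of these windows held the motif. Of the 9 lysosomal genes that rose, 8 had a window and 3 held the motif. The 30 bases around it are shown 5′ to 3′ with the motif in capitals, for cathepsin A at chr2:164833749-164833778 (plus strand), cathepsin D at chr7:142388048-142388077 (minus strand) and cathepsin L at chr13:64370739-64370768 (minus strand).
Ctsa: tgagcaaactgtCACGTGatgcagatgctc
Ctsd: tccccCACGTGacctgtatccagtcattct
Ctsl: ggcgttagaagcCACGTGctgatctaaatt
A window was held for 287 of the 386 members that rose (74.4%) and 172 of the 218 that fell (78.9%). The planned comparison of the motif's share between these 2 sets is void, because fewer than 80% of each had a window. In the windows that were held, the motif was in 13.6% of the first and 8.14% of the second, beside 11.7% for all members.

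Between 4 and 12 months, 386 members rose and 218 fell (limma, Benjamini-Hochberg adjusted p under 0.05). These were 5.03% of the 12004 members, 3.22% higher and 1.82% lower, beside 4.11% of the 14910 genes tested over all groups, 2.6% higher and 1.51% lower. Large changes were mostly rises. Of the members that rose, 284 differed by at least 1 and 31 by at least 2, whereas 156 of those that fell differed by at least 1 and 1 by at least 2. The 4 libraries of one age lay apart from the 4 of the other for 356 of the members that rose and 194 of those that fell, beside 7.14% of members lying wholly higher and 6.46% wholly lower at 12 months. With standard errors widened for the removed surrogate variables, an alternative added after the data were seen, 145 members rose and 32 fell, which is 1.21% and 0.267%. On simulated data with removed variables unrelated to the groups, the unwidened test made more false calls than its threshold allows and the widened test fewer, so the unwidened counts may hold more than that share of false calls. The plot of all members shows the genes of the disease-associated state toward its upper right.

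**Figure D1:**
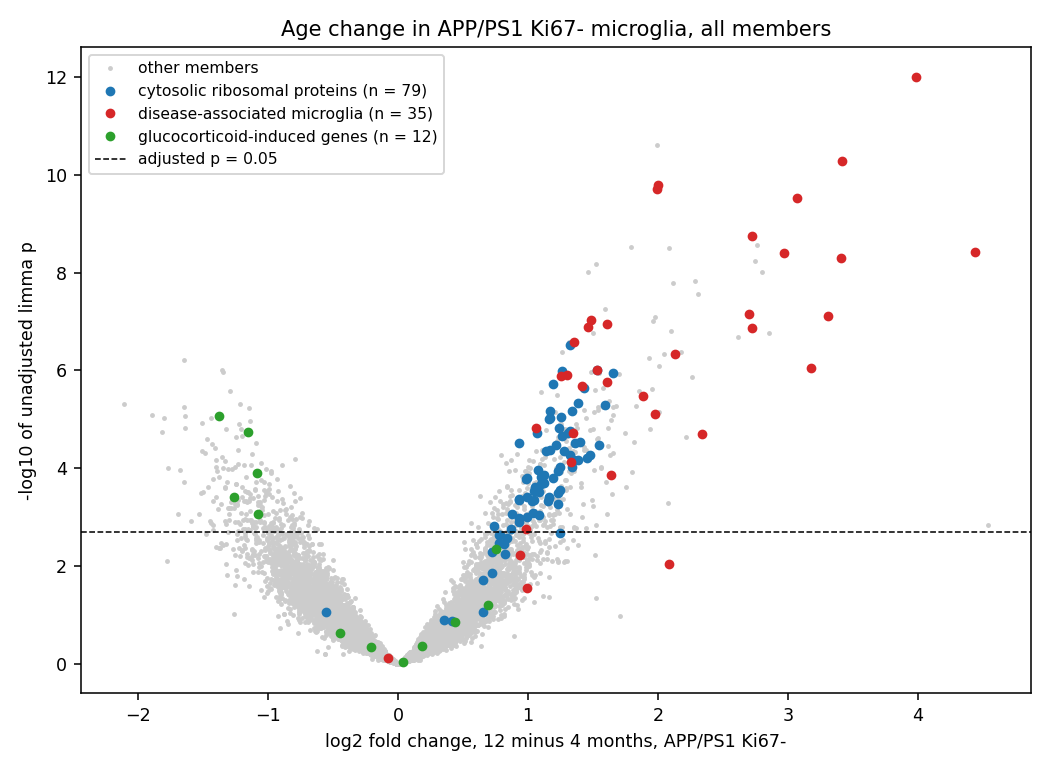
Each point is 1 of 12004 genes, with the log2 fold change from 4 to 12 months in APP/PS1 Ki67- microglia on the x axis and the −log10 of the unadjusted limma p on the y axis. Above the dashed line (adjusted p = 0.05) lie 31 of 35 disease-associated microglia genes (red) and 65 of 79 cytosolic ribosomal protein genes (blue), all to the right of 0, and 5 of 12 glucocorticoid-induced genes (green), all to the left.

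The genes of the disease-associated state rose together. Of 35 members on this list, 31 rose and 0 fell (34 higher and 0 lower at an unadjusted limma p under 0.05), with a median log2 fold change of 1.89 against −0.02 over all members. With widened standard errors 28 rose. The libraries of the 2 ages did not overlap for 32 of the 35. The 4 that did not pass the test were Spp1 (2.08, adjusted p = 0.119), Lgals3 (0.99, adjusted p = 0.222), Plin2 (0.94, adjusted p = 0.095) and Itgb5 (−0.08, adjusted p = 0.915), of which the first encodes the secreted protein osteopontin and the second galectin-3.

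Among the ligands, the steepest change with the lowest p was that of Apoe, which encodes the lipid carrier apolipoprotein E (ENSMUSG00000002985, GRCm38 chr7:19696109-19699188, minus strand). Its values were 13.88, 14.04, 13.12 and 13.34 in the 4-month libraries and 16.99, 17.58, 17.76 and 17.98 in the 12-month libraries. The lowest library at 12 months stood far above the highest at 4 months, and the gene rose by 3.98 ± 0.32 (SE, n = 4 and 4, adjusted p = 1.48e-08). Csf1, the growth factor that keeps microglia alive through the receptor CSF1R, went from 8.52, 7.83, 8.85 and 7.76 to 10.82, 11.24, 11.27 and 10.54, a rise of 2.73 ± 0.31 (adjusted p = 3.74e-06). Igf1, a secreted growth factor, went from 7.13, 6.97, 7.62 and 6.81 to 9.87, 10.27, 10.74 and 10.85 and rose by 3.31 ± 0.45 (adjusted p = 4.94e-05). No library of either age crossed into the other's range for these genes.

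The receptor Trem2 and its partner rose by smaller steps. Trem2 had values of 13.23, 13.29, 13.42 and 12.87 at 4 months and 14.45, 14.87, 14.66 and 14.66 at 12 months, a rise of 1.46 ± 0.21 (adjusted p = 6.99e-05). Its partner Tyrobp went from 13.02, 13.11, 13.16 and 12.74 to 14.31, 14.63, 14.61 and 14.59, a rise of 1.53 ± 0.24 (adjusted p = 0.000312). For both genes every 12-month library lay above every 4-month library. Axl, a receptor for the tags on dying cells and amyloid, went from 8.94, 9.50, 8.66 and 7.55 to 12.13, 11.71, 12.12 and 10.95, a rise of 3.07 ± 0.32 (adjusted p = 7.3e-07). Its libraries were more scattered than those of Trem2, with 1 low library at each age, yet did not overlap. Itgax, which encodes the integrin CD11c, rose by 2.72 ± 0.39 (adjusted p = 7.03e-05), and Clec7a, a receptor for sugars of fungal walls, by 3.18 (adjusted p = 0.000295).

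Of 28 phagocytic and Fc receptors, 7 rose and 1 fell, with a median of 0.39. Besides Axl, Trem2, Tyrobp, Itgax and Clec7a these were Lilrb4a (2.13), an inhibitory receptor, and Fcer1g (0.72), the shared chain of Fc receptors. Siglece, an inhibitory receptor for sialic acid, fell by 1.09 (SE 0.30, adjusted p = 0.0365). With widened standard errors 6 rose and 0 fell, and Siglece also lost its call without 4-month library 1 or 3 or 12-month library 1 or 4.

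Genes for the handling of lipid followed. Fabp5, a carrier of fatty acids in the cytosol, had values of 7.69, 7.49, 7.09 and 7.58 at 4 months and 10.02, 11.08, 11.36 and 11.05 at 12 months, and rose by 3.41 ± 0.33 (adjusted p = 2.54e-07). Lpl, the lipase that frees fatty acids from lipoproteins, went from 8.61, 9.29, 7.80 and 9.53 to 11.62, 11.71, 12.02 and 11.76 and rose by 2.97 ± 0.35 (adjusted p = 5.02e-06). The 12-month libraries of Lpl lay close together, while those at 4 months spread over more than 1 unit. Of 32 lipid genes, 8 rose and 1 fell, with a median of 0.51. Others that rose included Apoe, Npc2, Fabp3 (2.26), Ch25h (1.89), which makes 25-hydroxycholesterol, and Srebf2 (1.12), a factor that drives the genes of cholesterol synthesis. The one that fell, Pnpla2, encodes the lipase that opens lipid droplets (−1.14 ± 0.29, adjusted p = 0.0189), a call lost without 4-month library 1 or 12-month library 2.

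**Figure D2:**
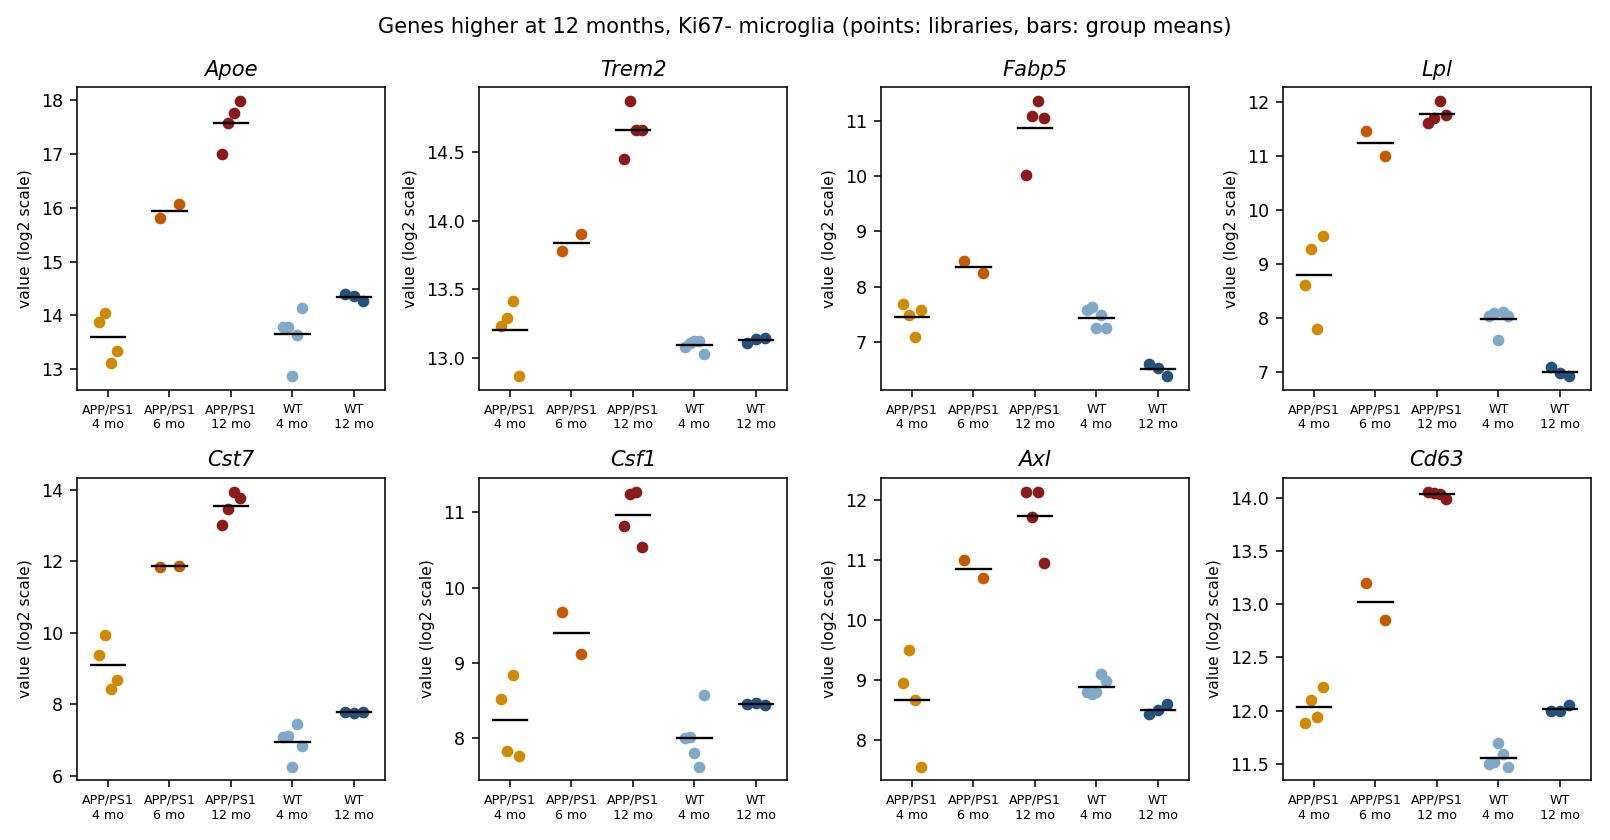
Value of 8 genes (y axes, log2 scale, with a separate range for each gene) in every Ki67- library (points) of APP/PS1 mice aged 4, 6 or 12 months and WT mice aged 4 or 12 months, with group means (bars). For each gene the 4 APP/PS1 libraries at 12 months lie above the 4 at 4 months, as for Apoe with 16.99 to 17.98 against 13.12 to 14.04, and for each gene the mean of the 2 libraries at 6 months lies between.

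A minority of the lysosomal genes passed the test. Of 52 lysosomal enzymes and membrane proteins, 9 rose and 0 fell (23 higher and 5 lower at an unadjusted limma p under 0.05), with a median of 0.38, and 8 rose with widened standard errors. Over all alternatives 7 to 22 rose. The change was positive for 36 of the 52, beside 5760 of all 12004 members. The ages did not overlap, in either direction, for 21 of the 52, beside 1632 of all members. The mean over the list was between 11.01 and 11.19 at 4 months and between 11.46 and 11.53 at 12 months. Cd63, a tetraspanin of late endosomes, had values of 11.89, 12.10, 11.94 and 12.22 at 4 months and 14.06, 14.05, 14.04 and 13.99 at 12 months, the 12-month libraries lying almost on top of each other, and rose by 2.00 ± 0.20 (adjusted p = 5.79e-07). The protease Ctsb went from 14.21, 14.30, 14.28 and 14.23 to 15.50, 15.62, 15.90 and 15.94, a rise of 1.49 ± 0.21 (adjusted p = 5.62e-05). Npc2, which hands cholesterol out of the lysosome, went from 12.19, 11.99, 12.04 and 11.90 to 13.42, 13.58, 13.42 and 13.54, a rise of 1.46 ± 0.18 (adjusted p = 8.72e-06). The others were the cathepsins Ctsz (1.35), Ctsd (1.25), Ctsl (1.61) and Ctsa (0.63), whose windows are printed above for the last 3, the macrophage glycoprotein Cd68 (1.30) and the hexosaminidase subunit Hexa (1.10). Tfeb itself had a difference of −0.73 (adjusted p = 0.123). Of 18 subunits of the proton pump that acidifies lysosomes, Atp6v0c (0.80 ± 0.17) and Atp6v0d2 (1.34 ± 0.27) rose, beside 3.22% of all members.

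Cst7, an inhibitor of lysosomal proteases, had the largest rise among the genes whose libraries did not overlap. Its values were 9.38, 9.94, 8.41 and 8.68 at 4 months and 13.01, 13.45, 13.94 and 13.75 at 12 months, a rise of 4.44 ± 0.52 (adjusted p = 5.02e-06). Gpnmb, a glycoprotein of lysosome-rich macrophages, stood between 6.07 and 6.58 at 4 months, below the level at which a gene became a member, and between 8.97 and 10.11 at 12 months (3.41 ± 0.40). Hpse, which cleaves heparan sulfate, went from 5.48 to 5.76 at 4 months to 7.61 to 9.56 at 12 months (2.76 ± 0.32). Because low values are compressed on this scale, the change of such genes may be understated. Dkk2, an inhibitor of Wnt signalling, rose by 1.99 ± 0.20 and Baiap2l2, which bends membranes, by 2.00 ± 0.18. The other disease-associated genes that rose were Ank (2.70), an exporter of pyrophosphate, Lyz2 (2.34), a lysozyme, Cd52 (1.64), Cd9 (1.61), a tetraspanin, Hif1a (1.42), the factor of the hypoxia response, Cd200r4 (1.33), Timp2 (1.06), an inhibitor of metalloproteases, and Fth1 (0.98), the ferritin heavy chain that stores iron. Of these, Cd52, Cd200r4 and Fth1 lost their call with widened standard errors.

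Ribosomal protein genes were the second group to rise. Of 79 cytosolic ribosomal proteins, the building blocks of the ribosome, 65 rose and 0 fell (75 higher and 0 lower at an unadjusted limma p under 0.05). Their changes were even, with a median of 1.14 and a highest value of 1.65, and 60 of the 79 did not overlap. With widened standard errors 26 rose. Rpsa had values of 11.27, 11.26, 11.29 and 11.27 at 4 months and 12.40, 12.89, 12.51 and 12.33 at 12 months (1.26 ± 0.20, adjusted p = 0.000312). The 4-month libraries of this gene were nearly identical, and every 12-month library lay more than 1 unit above them. Rpl41 rose by 1.53 ± 0.24. The mean over the list was between 10.38 and 10.70 at 4 months and between 11.08 and 11.93 at 12 months. Ribosomal protein genes have near-identical copies in the genome, so how reads were split between copies could not be checked.

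**Figure D3:**
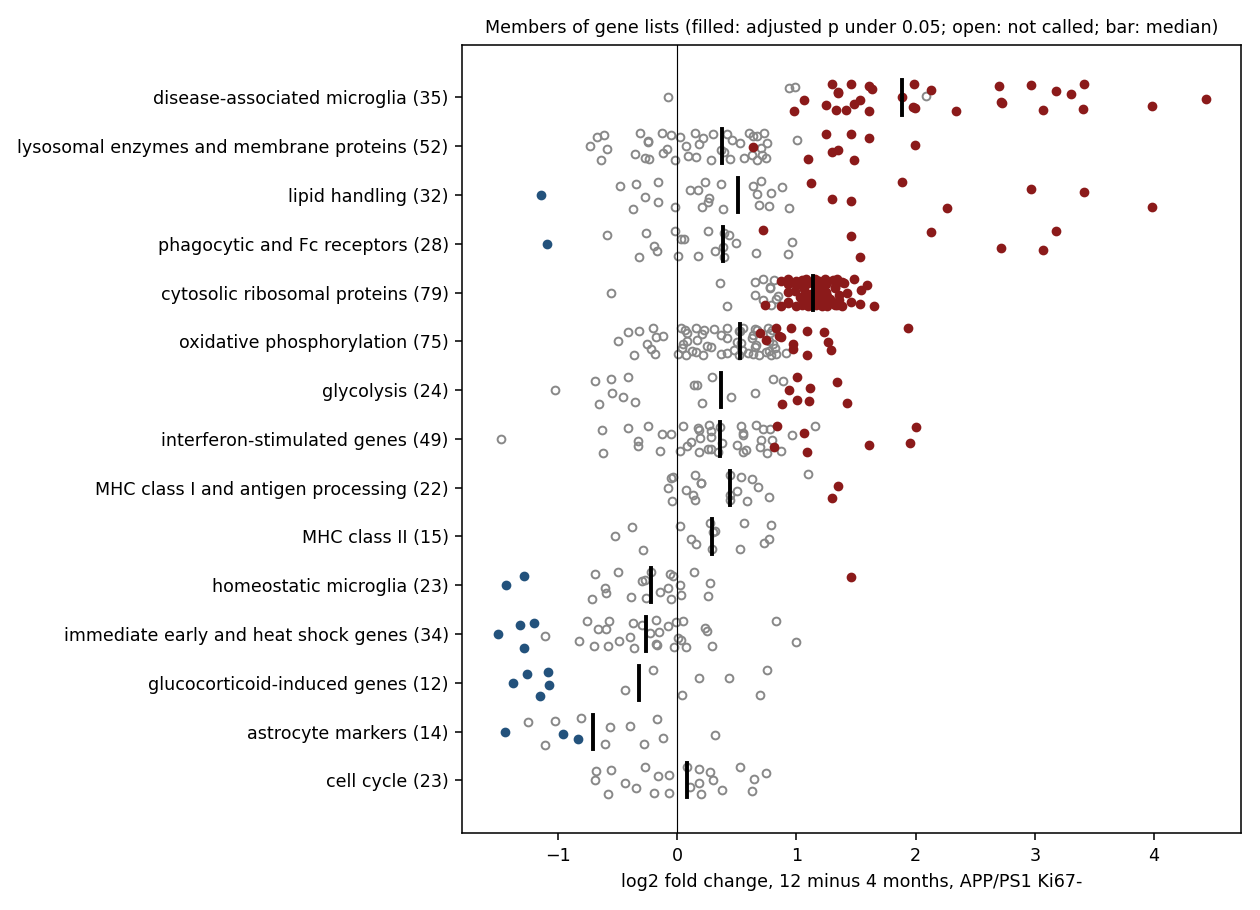
Log2 fold change from 4 to 12 months in APP/PS1 Ki67- microglia (x axis) for the members of 15 gene lists (rows, with the number of members), each circle 1 gene, filled where the adjusted limma p was under 0.05 (dark red higher, blue lower) and open where it was not, with the list's median as a black bar. The disease-associated microglia list spreads to 4.44 with a median of 1.89, the ribosomal proteins cluster around 1.14, and the glucocorticoid-induced and astrocyte lists have filled circles on the left only.

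Many of the ribosomal protein genes start at a tract of C and T bases, through which their translation is known to be set by mTOR. Windows were searched for a C within 5 bases of the annotated start followed by at least 4 C or T bases. It was found in 28 of the 58 members of this list with a window, beside 21.2% of all genes in the table and 23.6% of all members with a window. With a window for 73.4% of the list, under the 80% needed, the share is void as a comparison, and the search was added after the values were seen. Of these, 3 windows are shown to make the tract visible, 5′ to 3′ with the tract in capitals and 15 bases on each side of the start, for Rps6 at chr4:86857353-86857382 (minus strand), Rplp2 at chr7:141447636-141447665 (plus strand) and Rps18 at chr17:33955651-33955680 (minus strand), on GRCm38.p6.
Rps6: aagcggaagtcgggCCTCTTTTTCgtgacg
Rplp2: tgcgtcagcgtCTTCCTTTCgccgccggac
Rps18: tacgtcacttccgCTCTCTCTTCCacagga
These genes rose by 0.99, 1.24 and 1.17, with adjusted p of 0.0312, 0.014 and 0.00387.

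Genes of energy metabolism rose in part. Of 75 subunits of oxidative phosphorylation encoded in the nucleus, 14 rose and 0 fell (36 higher and 0 lower at an unadjusted limma p under 0.05), with a median of 0.52. The leading gene was Cox8a of cytochrome c oxidase, with 10.54, 10.96, 10.82 and 10.57 at 4 months and 11.99, 12.04, 11.94 and 11.98 at 12 months (1.26 ± 0.19, adjusted p = 0.000166). Ndufa1 of complex I rose by 1.93 ± 0.30 and Uqcrh of complex III by 1.23 ± 0.24, and these 3 were the ones left with widened standard errors. Of 24 glycolysis genes, 8 rose and 0 fell, with a median of 0.37. They were Gapdh (1.34), Tpi1 (1.43), Aldoa (1.10), Pgk1 (1.12), Pkm (1.00), Gpi1 (1.00), Ldha (0.94) and Pgam1 (0.88). With widened standard errors Gapdh and Tpi1 were left. Of 31 proteasome subunits 0 were called by limma, with 2 higher and 2 lower at an unadjusted p under 0.05 and a median of 0.02.

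Most genes of the surveying state did not pass the test. Of 23 homeostatic members, Tmem119 and Crybb1 fell and Trem2, which also belongs to the list above, rose, beside 5.03% of all members called. The median was −0.22, and 8 were lower at an unadjusted limma p under 0.05. Without 12-month library 4, 4 fell, and without 12-month library 1 or 4-month library 4, 3 fell. Tmem119, a membrane protein used to mark microglia, had values of 14.28, 14.05, 14.61 and 13.89 at 4 months and 13.16, 12.59, 12.68 and 13.24 at 12 months (−1.29 ± 0.22, adjusted p = 0.000609). Crybb1, a crystallin of early postnatal microglia, went from 10.63, 10.27, 11.02 and 9.96 to 8.74, 9.07, 9.19 and 9.12 (−1.44 ± 0.27, adjusted p = 0.00141). The ages did not overlap for either gene. The purine receptor P2ry12 had a difference of −0.72 with an adjusted p of 0.0681, P2ry13 of −0.60 with 0.0692 and Cx3cr1 of −0.08 with 0.892. The fall of this list was not particular to these cells. In WT Ki67- microglia 1 of the 23 rose with age and 3 fell, with a median of −0.44. In APP/PS1 Ki67+ microglia 1 rose and 8 fell, with a median of −0.37. The age change was more positive than in WT mice for 1 member and more negative for 2.

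Among the other genes that fell, 3 are given with every library. Eng, endoglin, a co-receptor for TGF-beta, went from 10.38, 9.51, 10.47 and 10.19 to 8.88, 7.93, 8.75 and 8.41 (−1.65 ± 0.25, adjusted p = 0.000217). Sema4b, a semaphorin, went from 8.89, 8.91, 9.18 and 8.92 to 7.93, 7.22, 6.87 and 7.28 (−1.65 ± 0.29, adjusted p = 0.00108). Slco4a1, an organic anion transporter, had the largest fall of all members, −2.11 ± 0.37 (adjusted p = 0.00101). For these 3 genes every 12-month library lay below every 4-month library. Sema6c (−1.22), another semaphorin, the cytokine subunit Il27 (−1.15) and Pdk2 (−1.80), a kinase that inhibits pyruvate dehydrogenase, fell as well. So did the adaptor Dok3 (−1.82), Mlc1 (−1.89) and Ctnnd2 (−1.34). Mlc1 is a gene of astrocytes and Ctnnd2 one of neurons and astrocytes, so their fall stands beside that of the astrocyte markers given below. Entpd1, the ectonucleotidase CD39, fell by 0.97 (SE 0.24, adjusted p = 0.017).

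**Figure D4:**
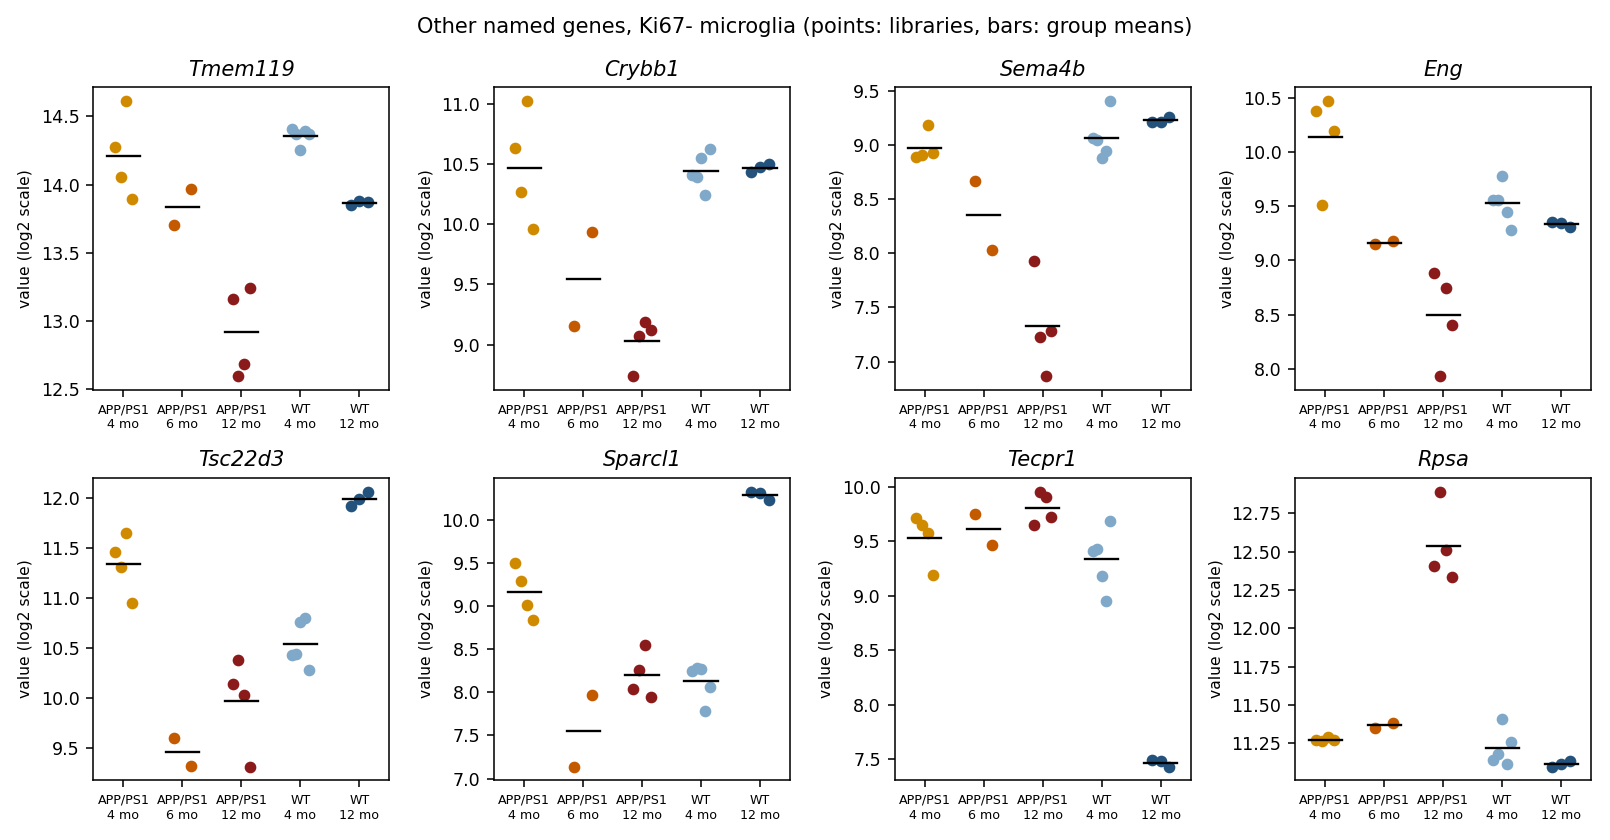
Value of 8 further genes (y axes, log2 scale, with a separate range for each gene) in every Ki67- library (points) of APP/PS1 mice aged 4, 6 or 12 months and WT mice aged 4 or 12 months, with group means (bars). Tmem119, Crybb1, Sema4b and Eng fall from 4 to 12 months in APP/PS1 mice, Tsc22d3 and Sparcl1 lie lower at 12 months in APP/PS1 mice and higher in WT mice, Tecpr1 differs between genotypes through its WT libraries, and Rpsa is higher in the 12-month APP/PS1 libraries than in any other library shown.

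Some genes of the stress response fell. Of 12 glucocorticoid-induced genes, 5 fell and 0 rose (5 lower and 1 higher at an unadjusted limma p under 0.05), with a median of −0.32, and 2 fell with widened standard errors or 3 without 12-month library 4. Tsc22d3, the glucocorticoid-induced leucine zipper, had values of 11.46, 11.31, 11.66 and 10.96 at 4 months and 10.15, 10.38, 10.03 and 9.32 at 12 months (−1.38 ± 0.25, adjusted p = 0.00136). Ddit4, an inhibitor of mTOR, went from 8.31, 8.28, 8.43 and 7.73 to 7.48, 6.89, 6.90 and 6.84 (−1.16 ± 0.22), and Glul, glutamine synthetase, fell by 1.09 (SE 0.24). For these 3 genes the ages did not overlap. Fkbp5 (−1.26) and Klf9 (−1.08), both induced through the glucocorticoid receptor, fell too, whereas Sgk1 (−0.21) and Per1 (−0.44) did not pass the test. Of 34 immediate early and heat shock genes, which also respond to tissue dissociation, Fosb (−1.51 ± 0.28), Fos (−1.20 ± 0.28), Ppp1r15a (−1.29 ± 0.33) and Klf2 (−1.32) fell and 0 rose, and Fosb alone was left with widened standard errors. Without a single library between 1 (without 4-month library 3) and 6 (without 4-month library 2) of this list fell. Egr1 (−0.76), Dusp1 (−0.60) and Junb (0.29) were not called.

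Inflammatory genes moved piecemeal, beside 3.22% of all members that rose and 1.82% that fell. Of 49 interferon-stimulated genes, 7 rose and 0 fell, with a median of 0.35, and 4 rose without 12-month library 2 or without 4-month library 1 or 3. Ifi27l2a had values of 8.23, 8.22, 7.75 and 7.63 at 4 months and 9.75, 10.68, 9.60 and 9.63 at 12 months (1.96 ± 0.33, adjusted p = 0.000573), with a single 12-month library well above the rest. Oas1g, a sensor enzyme for double-stranded RNA, rose by 2.01 ± 0.32, and these 2 were left with widened standard errors. The others were Oas2 (1.61), a relative of Oas1g, Parp14 (1.09), Slfn5 (1.06), whose ages overlapped, the transcription factor Irf8 (0.84) and Bst2 (0.81), which tethers budding viruses. Of 22 genes of MHC class I, which shows peptides to CD8 T cells, B2m (1.34 ± 0.26, adjusted p = 0.00219) and H2-D1 (1.30 ± 0.25, adjusted p = 0.00233) rose. Of 15 genes of MHC class II, 0 were called by limma, with 2 higher and 0 lower at an unadjusted p under 0.05. Of 18 inflammasome genes 0 were called either, with 2 higher and 2 lower at that level, a median of −0.06 and values from −0.76 to 0.90.

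Of 31 chemokines and cytokines, 7 rose and 1 fell. Besides Csf1 and Igf1, Mif, a macrophage cytokine, went from 9.49, 9.32, 9.43 and 9.66 to 10.85, 11.27, 10.86 and 11.27 (1.59 ± 0.21, adjusted p = 3.91e-05), and Ccl6 (1.98), Tnf (1.23), Pdgfa (1.06) and Cxcl14 (0.74) rose. Ccl7, a monocyte attractant, fell by 1.43 (SE 0.41, adjusted p = 0.0464) to between 5.04 and 6.37 at 12 months, a call lost without any one of 4-month libraries 1 to 3 or 12-month libraries 1 and 4. Of 17 complement genes, Itgax and C3ar1 (0.73 ± 0.20) rose, while the C1q subunits C1qa (0.21), C1qb (0.25) and C1qc (0.30) did not pass the test. Of the 17, 1 rose without 4-month library 2 or 4 or 12-month library 2 or 4. Of 38 genes of Toll-like receptor signalling, Ly86 rose (0.90 ± 0.20) and Tlr6 (−1.24 ± 0.32) and Myd88 (−1.03 ± 0.29) fell. Of these 0 were left with widened standard errors, 0 fell without 4-month library 4 or 12-month library 2 and 1 without 4-month library 3, and 2 rose without 4-month library 3 or 12-month library 3. Of 25 TGF-beta genes, Tgfbr2 rose (0.84 ± 0.20) and Eng fell, with 2 higher without 4-month library 3. For the Toll-like receptor and TGF-beta lists the counts stand beside 5.03% of all members called, and their genes are given as values only.

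In the remaining lists between 0 and 3 genes were called, beside 5.03% of all members, and the genes called are given as values only. Aplp2, a relative of the amyloid precursor protein, rose alone among 27 amyloid-processing genes. Its values were 10.28, 9.84, 10.14 and 9.50 at 4 months and 11.92, 13.31, 11.90 and 11.84 at 12 months (2.30 ± 0.30, adjusted p = 2.07e-05), with 1 library at 12 months above the other 3. Of 20 purinergic receptors and ion channels, Kcnj2 (1.54 ± 0.28) and the adenosine receptor Adora1 (1.80 ± 0.40) rose and Entpd1 fell, with 0 lower without 4-month library 1 and 3 without 12-month library 4. Of 43 autophagy genes, Atg7 rose (1.19 ± 0.33) and Ambra1 fell (−1.01 ± 0.24). Neither was left with widened standard errors, and 0 rose without 4-month library 2 or 12-month library 2, 2 without 12-month library 3 and 3 without 12-month library 1. Pdia6 (−0.99 ± 0.24) and Ppp1r15a fell among 23 genes of the unfolded protein response, with 1 lower without 4-month library 1 or 3 or 12-month library 2 and 0 with widened standard errors. Of 23 cell cycle genes, 0 were called by limma, with 1 higher and 1 lower at an unadjusted p under 0.05.

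Markers of other cells were given the same test, beside 3.22% of all members that rose and 1.82% that fell. Of 14 astrocyte markers, Sparcl1 (−0.96 ± 0.25, adjusted p = 0.0259), Gjb6 (−1.45 ± 0.40, adjusted p = 0.0352) and Slc1a3 (−0.83 ± 0.24, adjusted p = 0.0487) fell and 0 rose, with 7 lower at an unadjusted limma p under 0.05 and 0 left with widened standard errors. The count rested on single libraries: 0 fell without 4-month library 1, 6 without 12-month library 3, and 1 without 4-month library 2 or 4 or any one of the other 12-month libraries. The ages overlapped for Gjb6. The mean of the list lay between 8.42 and 8.96 at 4 months and between 7.70 and 8.49 at 12 months, and Gfap was not a member. Glul, listed above, is also abundant in astrocytes, and the part of this shift in the fall of Glul, Mlc1 and Ctnnd2 was not tested. Of 8 endothelial and mural markers, Kdr fell (−1.64 ± 0.30, adjusted p = 0.00134) and Cspg4 rose (1.56 ± 0.34, adjusted p = 0.00662) with overlapping ages, while Cdh5 and Vwf were not members. Among 7 lymphocyte markers, Il7r fell (−1.25 ± 0.27, adjusted p = 0.00662) and Cd3e and Cd4 were not members.

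Monocytes and border macrophages also lie in a CD11b+/CD45+ gate. Of 14 monocyte and neutrophil markers, 0 were called by limma and 0 had an unadjusted p under 0.05. Their mean ranged from 7.80 to 8.64 at 4 months and from 7.45 to 8.56 at 12 months. Of 10 markers of border-associated macrophages, 0 were called, with 1 higher and 1 lower at that level. Neither did any of 14 oligodendrocyte markers pass limma's test, with 2 higher and 1 lower at an unadjusted p under 0.05, nor any of 7 neuronal markers, with 0.

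The 2 libraries at 6 months lay between the ages for some groups and not for others. They are given as a description. Of the 31 disease-associated genes that rose by 12 months, all 31 had a 6-month mean between the means at 4 and 12 months, at a median of 0.521 of the way. Apoe, for example, had 15.81 and 16.07 at 6 months, Trem2 13.78 and 13.90 and Axl 10.99 and 10.69. The mean of Axl was 8.66 at 4 months, 10.84 at 6 months and 11.73 at 12 months. Gpnmb at 6.43 and 6.43 and Atp6v0d2 at 6.21 and 6.44 had not left their 4-month level. Of the 65 ribosomal protein genes that rose, 29 had a 6-month mean between the ages, at a median position of −0.03, that is, at the 4-month level. Rpsa had 11.35 and 11.38 at 6 months. Over all members that rose, the median position was 0.378, and over those that fell 0.564. The 5 glucocorticoid-induced genes that fell had a median position of 1.33, lower at 6 months than at 12. Over that whole list the mean at 4, 6 and 12 months was 10.08, 9.36 and 9.71 in APP/PS1 Ki67- libraries. In WT Ki67- libraries it was 9.83, 9.55 and 10.60, so the 6-month mean was the lowest in both genotypes. The plot of list means by library shows these courses side by side.

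**Figure D5:**
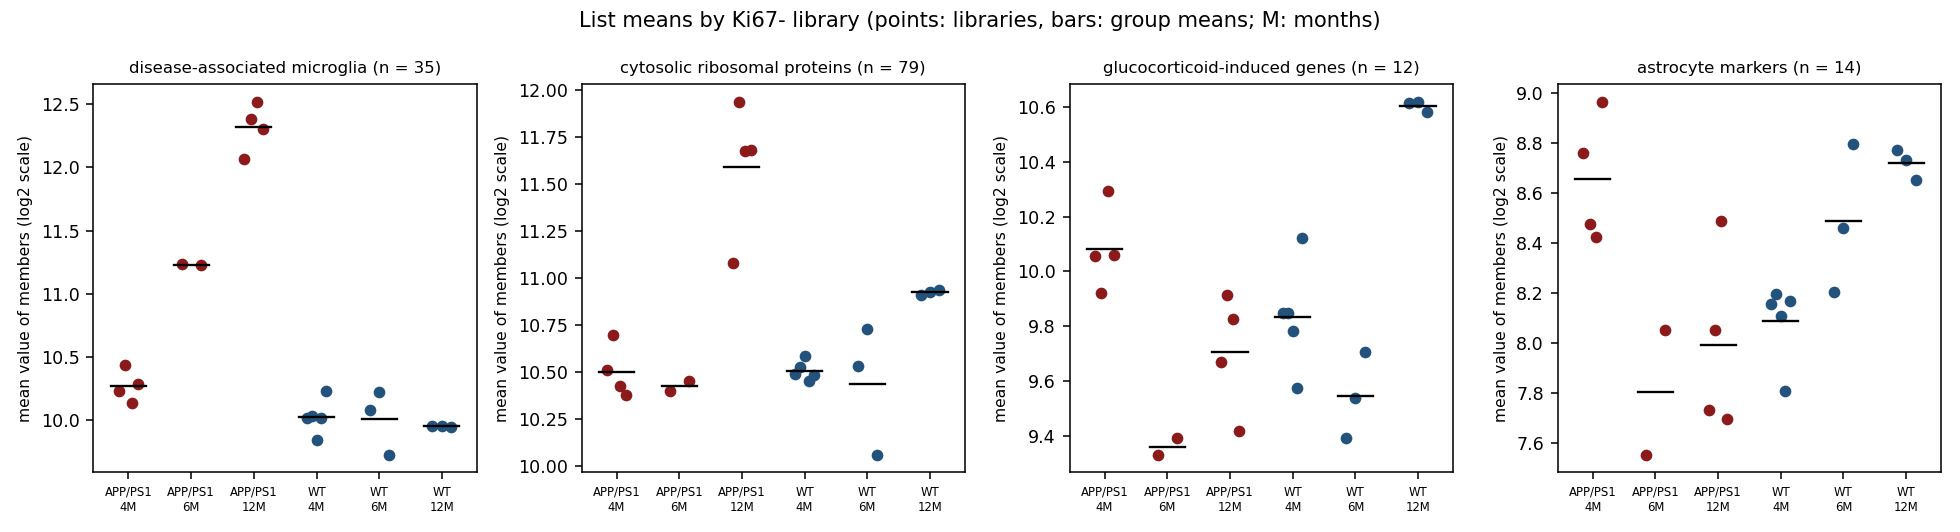
Mean value over the members of 4 gene lists (y axes, log2 scale, with a separate range for each list) in every Ki67- library (points) of APP/PS1 (red) and WT (blue) mice at each of the 3 ages, with group means (bars). The disease-associated list rises at 6 and again at 12 months in APP/PS1 mice, the ribosomal list is higher at 12 months only, and the glucocorticoid-induced and astrocyte lists are higher in WT mice and lower in APP/PS1 mice at 12 than at 4 months; the 3 WT libraries at 12 months lie on top of each other.

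The same age step in WT Ki67- microglia asks how much of the change goes with the transgenes. There 688 members rose and 930 fell (13.5% of members called, 5.73% higher and 7.75% lower), and the age change differed between the genotypes for 851 members, 500 more positive and 351 more negative in APP/PS1 mice (7.09%, as 4.17% and 2.92%). With widened standard errors this difference was called for 101 and 34. The counts rest on the 3 WT libraries at 12 months whose spread was nearly all removed, and without any 1 of them between 497 and 510 differences were called. The difference uses the same 8 APP/PS1 libraries as the age change itself, so both are given side by side and not as an overlap.

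In the disease-associated list, 0 members rose and 2 fell in WT mice, with a median of −0.11, and the age change was more positive in APP/PS1 mice for 26 of 35 (18 with widened standard errors). Apoe differed by 0.69 in WT mice (adjusted p = 0.179), 3.29 ± 0.46 less than in APP/PS1 mice (adjusted p = 9.77e-05). For Fabp5 the WT value was −0.93 (adjusted p = 0.0675) and the difference of age changes 4.35 ± 0.47 (adjusted p = 3.37e-06). Trem2 had 0.04 in WT mice and a difference of 1.42 ± 0.30 (adjusted p = 0.00481, 0.0554 with widened standard errors). For Tmem119 the WT value was −0.49 (adjusted p = 0.16), and its difference of −0.80 ± 0.31 did not pass the test (adjusted p = 0.129).

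For ribosomal proteins the difference between genotypes was called for few members. In WT mice 3 of 79 rose and 0 fell, 28 had an unadjusted limma p under 0.05, and the median was 0.44 against 1.14 in APP/PS1 mice. A more positive age change in APP/PS1 mice was called for 4, Rpsa (1.36 ± 0.29, adjusted p = 0.00522) among them, beside 4.17% of all members. The median difference was 0.64, and 0 were left with widened standard errors. The difference was positive for 78 of the 79, and 32 had an unadjusted limma p under 0.05. The glucocorticoid-induced genes went the other way in WT mice, where 6 of 12 rose and 0 fell, with a median of 0.85, and the age change was more negative in APP/PS1 mice for 6. Tsc22d3 had 1.45 in WT mice (adjusted p = 0.000853) and a difference of −2.83 ± 0.36 (adjusted p = 4.03e-05). The astrocyte markers behaved alike, with 5 of 14 higher in WT mice and a more negative age change in APP/PS1 mice for 6, as for Sparcl1 with 2.16 and −3.12 ± 0.36 (adjusted p = 1.21e-05).

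Some genes differed between genotypes through a change in WT mice. Pld3, a lysosomal nuclease, rose by 1.50 ± 0.21 in APP/PS1 mice (adjusted p = 8.08e-05) and had −1.88 in WT mice (adjusted p = 1.12e-05), with a difference of 3.38 ± 0.31 (adjusted p = 2.99e-07). Slc16a3, an exporter of lactate, had 0.80 ± 0.27 in APP/PS1 mice (adjusted p = 0.098) and −3.05 in WT mice (adjusted p = 1.73e-07). Ntm, a neuronal adhesion protein, had −0.50 ± 0.20 (adjusted p = 0.17) and 1.64 (adjusted p = 1.38e-05). The study names some genes of Ki67- microglia at 12 months from a comparison of the genotypes, which is not the comparison of ages given here. Among these, Fabp5, Myo1e (2.29 ± 0.29), Haghl (1.11 ± 0.31, adjusted p = 0.0401) and Cxcl14 (0.74 ± 0.19, adjusted p = 0.024) rose with age. Tecpr1 (0.28 ± 0.22, adjusted p = 0.579), Zdhhc4 (−0.40 ± 0.40, adjusted p = 0.682) and Psen2 (0.36 ± 0.41, adjusted p = 0.731) did not pass the test, while in WT mice their values were −1.86, −2.31 and −1.44, with adjusted p of 1.12e-05, 0.000853 and 0.0256. The APP/PS1 libraries of Tecpr1 stood at 9.71, 9.65, 9.58 and 9.18 at the younger age and at 9.64, 9.95, 9.91 and 9.72 at the older one, so that the ages overlapped.

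The sorted Ki67+ microglia of the same genotype give the age step in dividing cells, from libraries other than the 8 above. There 373 members rose and 309 fell (5.68% called, 3.11% higher and 2.57% lower). Of the members that rose in Ki67- cells, 190 also rose in Ki67+ cells, which is 49.2% of the former and 50.9% of the latter, and 0 fell. Of those that fell, 47 also fell in Ki67+ cells, 21.6% and 15.2% of the 2 lists. The difference between the 2 age changes passed limma's test for 0 members, while 991 members had an unadjusted p under 0.05, and 183 were called when the removed variables were left out of the degrees of freedom. In the disease-associated list 26 of 35 rose in Ki67+ cells with a median of 1.34, and of the ribosomal proteins 64 of 79 with a median of 1.08.

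For Apoe and Fabp5 the interval of this difference lay above 0 although the adjusted test was not passed. Apoe rose by 1.89 in Ki67+ cells (adjusted p = 0.00086), and its age change was 2.09 higher in Ki67- cells (95% interval 1.17 to 3.01, adjusted p = 0.2). Fabp5 rose by 1.36, with a difference of 2.06 (95% interval 1.11 to 3.00, adjusted p = 0.207). At 12 months the Ki67- and Ki67+ means were 17.58 and 17.57 for Apoe and 10.88 and 10.99 for Fabp5. At 4 months they were 13.59 and 15.68 for Apoe and 7.46 and 9.63 for Fabp5. For both genes the means thus lay close at 12 months and were higher in Ki67+ cells at 4 months. Aplp2, whose interval also lay above 0 (95% interval 0.27 to 2.01, limma adjusted p = 0.473), went otherwise. Its Ki67- and Ki67+ means were 9.94 and 10.02 at 4 months and 12.24 and 11.19 at 12 months. These genes are among the 991 members with an unadjusted limma p under 0.05. In Ki67+ cells Trem2 rose by 1.34 with a difference of 0.12 (95% interval −0.47 to 0.72), and Tmem119 had −1.39 with a difference of 0.10 (95% interval −0.53 to 0.73). These intervals come from the fit before widening. The Ki67+ libraries carried more astrocyte marker RNA, with list means of 10.23 to 10.62 at 12 months and 10.88 to 11.30 at 4 months, and its part in these differences was not tested. The study names some genes of Ki67+ microglia from a comparison of the genotypes, not of the ages. Of these, Trem2, Tyrobp and Mpeg1, the pore-forming perforin-2 of macrophages (0.86 ± 0.22, adjusted p = 0.0198), rose with age in Ki67- cells, and in Ki67+ cells Tyrobp rose by 1.26 (adjusted p = 0.00254) and Mpeg1 by 1.28 (adjusted p = 0.000881). The sialic acid receptor Cd33 passed the age test in neither, with 0.00 ± 0.22 (adjusted p = 0.998) in Ki67- cells and −0.07 (adjusted p = 0.891) in Ki67+ cells. Nor did the RNA helicase Ddx3x, whose reads may be shared with its close copy Ddx3y, with −0.08 ± 0.23 (adjusted p = 0.903) and 0.04 (adjusted p = 0.952).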

How the data were processed

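The data are full-length cDNA RNA-seq libraries from up to 400 fixed, sorted CD11b+/CD45+ cells each. The authors quantified reads with kallisto 0.43.1 on GRCm38, normalized with DESeq2 and removed 10 surrogate variables. The deposited table gives 1 score per gene and library on the log2 scale for 19151 genes and 42 libraries. These values are not counts, so depth is unknown and low values are flattened.

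Group means of all 12 groups were fitted with limma 3.58.1 (R 4.3.3) to 14910 genes, those averaging 7 or more in any group, which left out 4241. The residual degrees of freedom were set to 20, the 30 between replicates less the 10 removed, and p-values were Benjamini-Hochberg adjusted over all tested genes, with calls at 0.05. Tests were checked on simulated data, where the test as fitted gave more false calls than its threshold allows when the removed variables were unrelated to the groups, and fewer when they were orthogonal to them. Widened standard errors, which multiply the contrast variance by 1.53, kept false calls under the threshold with unrelated variables.

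The genes named were the 8 per direction with the lowest p and the 4 with the largest change among called members whose ages did not overlap, up to 3 called members per list and direction, the genes the study names, and the 5 per sign with the lowest p of the difference from WT. Genes from lists named beyond these were chosen after their values were seen, and some genes that the rule picks are not reported here. Members and lists were chosen with earlier results of these data known. Gene positions are from GENCODE M21 and promoter windows from RefSeq.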

Additional observations from a re-analysis of the deposited data

Results flagged for a closer look

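The change from 4 to 12 months differed between APP/PS1 and WT Ki67- microglia, by limma's test of the difference itself, for 56 of 84 named genes, 39 more positive and 17 more negative in APP/PS1 mice. Among all members 7.09% were called. Some of the named genes were picked for this very difference, and most others for their age change in the same APP/PS1 libraries. The count is raised by that choice and is no result about the named genes. The values are the APP/PS1 change minus the WT change on the log2 scale, and they rest on the 3 WT libraries at 12 months that had almost no spread left. More positive were the disease-associated genes Apoe (3.29), Cst7 (3.61), Gpnmb (3.71), Fabp5 (4.35), Lpl (3.94), Igf1 (3.67), Csf1 (2.27), Axl (3.45), Itgax (2.69), Trem2 (1.42), Tyrobp (1.95), Dkk2 (2.10) and B2m (1.67). Among lysosomal and membrane genes the differences were those of Cd63 (1.54), Ctsb (1.67), Npc2 (1.26), Pld3 (3.38), Atp6v0d2 (1.29), Hpse (3.04), Tecpr1 (2.14), Atg7 (1.91), Baiap2l2 (2.18) and Zdhhc4 (1.90). Metabolic genes and a ribosomal protein gave Gapdh (1.94), Tpi1 (1.74), Ndufa1 (2.00), Slc16a3 (3.86), Haghl (2.46) and Rpsa (1.36). Immune genes, channels and receptors gave H2-D1 (1.39), Ifi27l2a (2.01), Mif (2.00), Cxcl14 (1.18), C3ar1 (1.16), Ly86 (1.24), Mpeg1 (1.03), Kcnj2 (2.202), Adora1 (2.22) and Myo1e (2.85).

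More negative were the stress-related genes Tsc22d3 (−2.83), Ddit4 (−2.11), Glul (−1.88) and Fosb (−1.83). The homeostatic list gave Crybb1 (−1.47), and genes of receptors and signals gave Eng (−1.46), Tlr6 (−1.88), Ccl7 (−2.44), Il27 (−1.21) and Sema4b (−1.81). Genes also expressed by astrocytes, neurons or endothelium gave Sparcl1 (−3.12), Mlc1 (−1.80), Ctnnd2 (−2.21), Ntm (−2.13) and Kdr (−2.25), and 2 metabolic genes gave Pdk2 (−1.79) and Pnpla2 (−1.76). The list of astrocyte markers moved the same way (a more negative change for 6 of 14), and its part in these values was not tested.

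In 17 of 168 groups of 4 APP/PS1 libraries, 1 per named gene and age, a single library stood apart from the other 3, its gap to the nearest, as a share of the group's range, being above Dixon's 95% critical value. Chance alone would pick about 1 in 20 such groups, and the genes are not independent. At 12 months this was the highest library for Aplp2 (0.95 of the range, at 13.31 with the nearest at 11.92), Ddit4 (0.904 of the range, at 7.48 with the nearest at 6.9), Dok3 (0.879 of the range, at 8.74 with the nearest at 7.39), Gapdh (0.837 of the range, at 13.59 with the nearest at 13.19), Gjb6 (0.903 of the range, at 8.79 with the nearest at 7.29), Ifi27l2a (0.859 of the range, at 10.68 with the nearest at 9.75) and Itgax (0.884 of the range, at 10.96 with the nearest at 10.5). At 12 months this was the lowest library for Aldoa (0.844 of the range, at 12.21 with the nearest at 12.88), Cxcl14 (0.868 of the range, at 7.4 with the nearest at 8.14), Tyrobp (0.866 of the range, at 14.31 with the nearest at 14.59) and Uqcrh (0.856 of the range, at 11.33 with the nearest at 11.85). At 4 months this was the highest library for Cspg4 (0.838 of the range, at 6.82 with the nearest at 5.88), Kdr (0.888 of the range, at 9.43 with the nearest at 8.3), Sema4b (0.879 of the range, at 9.19 with the nearest at 8.92) and Slc16a3 (0.85 of the range, at 8.16 with the nearest at 7.77). At 4 months this was the lowest library for H2-D1 (0.845 of the range, at 11.83 with the nearest at 11.94) and Itgax (0.855 of the range, at 7.23 with the nearest at 8.02).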

How the results depend on the processing

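The count of genes called between 4 and 12 months in APP/PS1 Ki67- microglia (604) stayed within 1.5 times under the other filters, the trend and robust options, subtraction of library medians (707, of which 465 higher) and a fit of the 8 libraries alone (428), and ranged from 469 to 629 without single libraries. When the removed variables were not counted against the degrees of freedom it was 1734, with 3218 in WT mice, 2033 in Ki67+ microglia, 2309 for the difference between genotypes and 183 for the difference between Ki67- and Ki67+. A fit of Ki67- libraries alone gave 1741 (906 higher and 835 lower). Widened standard errors gave 177, 414, 133 and 135 for the first 4 of these comparisons, and the 8 libraries with degrees of freedom scaled to the variation left gave 114 (99 higher and 15 lower). These 2 settings were added after the data were seen. In WT mice a fit of the 2 groups alone gave 6588, and for the genotype difference a fit of 4 groups gave 2697, both resting on the 3 WT libraries at 12 months with nearly no spread. Without single libraries these counts ranged from 756 to 1514 and from 497 to 945, lowest without 1 of those 3 libraries (756 to 800 and 497 to 510).

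Of the 87 genes that the naming rule picks, 28 lost their call with widened standard errors, 15 with the 8 libraries alone and 40 with scaled degrees of freedom. Disease-associated genes that rose numbered 26 to 33 of 35 and ribosomal proteins 15 to 75 of 79 over all alternatives. Reversals occurred in uncalled genes without a single library: Cd33 (−0.12 to 0.15), Ddx3x (−0.21 to 0.15), Mki67 (−0.057 to 0.45) and Zdhhc4 (−0.65 to 0.13), where the cause was not tested. No paired analysis was possible because the labels carry neither replicate numbers nor the mouse behind a library. Depth cannot be read from these values, so low genes cannot be called absent.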

Other observations

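Gh, the growth hormone gene, had the largest fold change of all called members and lies outside every list. It was chosen after its values were seen. Its values were 3.87, 5.00, 4.08 and 5.65 in the APP/PS1 Ki67- libraries at 4 months and 7.27, 8.75, 5.21 and 15.5 at 12 months, so that the ages overlapped and 1 library stood far above the rest. The log2 fold change was 4.54 ± 1.28 (SE, adjusted p = 0.0401 by limma, 0.217 with widened standard errors).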
